A study of Mus musculus with 12 samples.

Results

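The messages of ribosomal proteins, those of the cytosolic and those of the mitochondrial ribosome, were measured in primary fibrochondrocytes of the mouse mandibular condylar cartilage, the cartilage of the jaw joint. Members were the rows of the deposited gene table whose symbol was Rpl, Rps, Mrpl or Mrps followed by a number, with or without a short suffix as in Rps4x or Rpl7l1, together with the P stalk genes Rplp0, Rplp1 and Rplp2. Symbols that mark a pseudogene copy were left out, and a member had to reach 10 counts in at least 3 of the 12 libraries. Of 31075 rows, 162 had such a symbol and 160 reached this minimum. The other two were Rpl3l, whose highest count in any library was 8, and Rps12l1, whose highest count was 4. The cytosolic ribosome had 85 members, 34 of the small and 51 of the large subunit, and the mitochondrial ribosome had 75 members, 26 of the small and 49 of the large subunit. All 160 members passed the filter on low counts in edgeR, among 19118 genes tested. In GENCODE M21, 155 members are protein coding and 5 are annotated as pseudogenes in spite of their names, namely Rps3a2, Rps3a3, Rpl6l, Rpl32l and Rps4l.

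Cells came from pups 10 to 14 days of age and were at passage 4 according to the labels, while the methods have cells used before the third passage. There were 4 groups of 3 libraries. KO_Opti cells lacked NG2/CSPG4 and were titled as kept in Opti-MEM with no serum added, and KO_Norm cells had the same genotype and were titled as kept in AMEM with heat-inactivated fetal bovine serum. WT_Opti and WT_Norm cells were wild type C57BL/6J cells in these same media. Knockout mice came from the knockout-first allele Cspg4tm1a(KOMP)Wtsi/Bcm, which a cross to a Cre line had turned into a deletion that carries a reporter, and were crossed back to C57BL/6J. Serum and basal medium cannot be told apart, since both differ between the media. Titles and treatment entries of the 6 knockout libraries name opposite media. The groups follow the titles, and under the treatment entries every KO_Opti library would be a KO_Norm library and every KO_Norm library a KO_Opti library. The study's methods speak of 3 biological replicates, and neither they nor the labels say whether the libraries came from separate animals or cultures. The spread that the p-values rest on may then be technical in part.

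A ribosome of the cytosol is built from ribosomal RNA and proteins of a small subunit, which reads the messenger RNA, and of a large subunit, which joins amino acids and carries the P stalk that recruits elongation factors. Growing cells spend much of their transcription on these proteins, and serum and nutrients act on their production through Myc and through mTORC1 signaling. The messages typically begin with a cytosine and a run of pyrimidines, the terminal oligopyrimidine (TOP) tract, through which mTORC1 sets how strongly they are translated. Mitochondrial ribosomes sit at the inner membrane and translate the few proteins encoded by mitochondrial DNA, all of them subunits of the respiratory chain and the ATP synthase, and their own proteins are encoded in the nucleus and imported.

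The start sites of members on which the results turn are shown because the TOP tract lies there. Each window holds 30 bases of the RefSeq promoter table (GRCm38.p6), 15 of them before the annotated start, read on the strand of the gene. Capitals mark a run of at least 5 pyrimidines that opens with C within 5 bases of the start, and a window all in lower case holds no such run.
Rps10, chr17:27635230-27635259, minus strand: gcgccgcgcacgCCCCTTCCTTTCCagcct
Rps15a, chr7:118116133-118116162, minus strand: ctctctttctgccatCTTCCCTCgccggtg
Rpl34, chr3:130730384-130730413, minus strand: cgccttccctgacgtaCTTCCTgtccggcg
Rpl12, chr2:32961697-32961726, plus strand: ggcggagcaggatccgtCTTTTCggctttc
Rps12, chr10:23787195-23787224, minus strand: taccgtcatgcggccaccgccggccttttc
Rplp0, chr5:115559452-115559481, plus strand: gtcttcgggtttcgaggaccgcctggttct
Mrpl45, chr11:97315701-97315730, plus strand: gtgcccgcgcgCCCCTCCCCTggagagcgt
Mrpl2, chr17:46646206-46646235, plus strand: tggaaagcgacgggaccgggaccggaacgt
Mrps30, chr13:118387238-118387267, minus strand: ttgacctcaagttccgggtcgcggcgggcg

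Of the 160 members, 127 were in the RefSeq table. A run of this kind stood at the start of 30 of 61 cytosolic members (49.2%) and of 17 of 66 mitochondrial members (25.8%), beside 21.2% of 27025 genes with a promoter in the table. Annotated starts can lie some bases from the start in use, so a missing run says only that these letters are not at the annotated position. In the whole window of 300 bases, 250 before and 50 after the start, CCGGAAG, a core of ETS family sites, occurred on either strand in 41.0% of cytosolic and 34.8% of mitochondrial members, and in 9.93% of all promoters. The NRF1 letters GCATGCGC occurred in 4.92% of cytosolic and 10.6% of mitochondrial members (3.05% of all), the YY1 letters AAGATGGCG in 6.56% and 10.6% (1.64% of all), and the E-box CACGTG in 9.84% and 6.06% (8.09% of all). The ETS letters were thus common to both sets, and the E-box letters were about as frequent as elsewhere.

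The libraries held 51546504 to 71448484 counts. Cspg4 lay between 10.5 and 16.6 CPM (counts scaled to library size with TMM factors) in the 6 KO libraries and between 113.5 and 216.3 CPM in the 6 WT libraries, a log2 fold change of -3.73 ± 0.13 (SE) with an adjusted p of 2.29e-09 in edgeR and an exact two-sided permutation p of 0.00216. Summed mesenchymal and fibrochondrocyte markers (11 genes) ranged over 35098 to 50595 CPM in KO_Opti, 64895 to 85915 in KO_Norm, 94141 to 107330 in WT_Opti and 131456 to 145427 in WT_Norm. The single markers went both ways, with 4 higher and 4 lower in KO_Opti than in WT_Opti. In KO_Norm 2 were higher and 6 lower than in WT_Norm, and Opti medium went with 1 higher and 5 lower in each genotype. Myeloid markers were detected, and their 7 genes summed to 181.8 to 213.7 CPM in KO_Opti, 511.6 to 559.5 in KO_Norm, 593.9 to 1024 in WT_Opti and 451.8 to 572.2 in WT_Norm. All 7 were lower in KO_Opti than in KO_Norm and in WT_Opti. Summed endothelial markers reached 1.66, 39.8 and 3.90 CPM in the WT_Norm libraries and at most 3.64 CPM elsewhere, and epithelial markers 89.0, 143.0 and 1.73 CPM in the WT_Norm libraries and at most 15.8 CPM elsewhere. Of 5 endothelial markers tested, 5 were lower in KO_Norm and 4 in WT_Opti than in WT_Norm, and of 4 epithelial markers tested 1 and 2 were. Skeletal muscle markers summed to at most 7.66 CPM, in WT_Norm library 3, and no detected list had a gene at 0 in every library. Y-linked genes (4 genes), which follow the share of male cells, summed to 73.5 to 82.1 CPM in KO_Opti, 112.7 to 129.3 in KO_Norm, 52.1 to 58.8 in WT_Opti and 37.5 to 66.1 in WT_Norm, so that the sex of the pups and the groups cannot be told apart. The part of these cell type differences in the results was not tested.

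Within groups, single libraries moved most members of a set together. KO_Opti library 1 was above both other KO_Opti libraries in 80 of 85 cytosolic members (median log2 difference 0.54) and in 63 of 75 mitochondrial members, and KO_Opti library 2 was below both in 79 of 85 cytosolic members. Pseudogenes of all kinds held 2.72% of the counts in KO_Opti library 1 and 1.18% to 1.84% in the other libraries. What sets this library apart was not tested. KO_Norm library 1 was below both other KO_Norm libraries in 82 of 85 cytosolic and in 72 of 75 mitochondrial members. WT_Norm library 3 was above both others in 61 of 85 cytosolic members. WT_Opti library 1 was below both other WT_Opti libraries in 75 of 85 cytosolic and 65 of 75 mitochondrial members, and WT_Opti library 3 was above both in 75 and 65. The counts of members called by the fit are therefore also given without the libraries that move them most. Counts under these and other alternative fits stand without the share of all genes called in the same fit. That share can move too, so a change in such a count is not by itself particular to the members.

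Cytosolic ribosomal proteins were among the abundant messages of these cells. Per transcript length, the median cytosolic member had a mean of 150.8 FPKM over the 12 libraries (quartiles 69.7 and 266.1) and the median mitochondrial member 8.63 FPKM (quartiles 4.62 and 13.7). The P stalk genes Rplp1 and Rplp0, at 1332 and 1299 FPKM, and the small subunit genes Rps3a1 and Rps2, at 769 and 635 FPKM, stood highest. In the mitochondrial set Mrpl10 and Mrpl24 of the large subunit, at 27.9 and 26.7 FPKM, and Mrps21 and Mrps23 of the small subunit, at 24.9 and 23.6 FPKM, stood highest. Subunits of one ribosome had similar medians, 144.7 FPKM for the small and 152.7 for the large cytosolic subunit, and 7.14 FPKM for the small and 10.3 for the large mitochondrial subunit.

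The summed level of cytosolic members was 29838, 19496 and 23093 FPKM in the KO_Opti libraries, 13409, 17990 and 17561 in KO_Norm, 15802, 17466 and 19502 in WT_Opti and 15456, 14788 and 15514 in WT_Norm. The KO_Opti libraries stood above all KO_Norm and WT_Norm libraries, and the lowest of them was almost level with the highest WT_Opti library. Every WT_Opti library was above every WT_Norm library, though the lowest WT_Opti value (15802) was close to the highest WT_Norm value (15514). The mitochondrial members summed to 1031, 749 and 853 FPKM in KO_Opti, 651, 909 and 856 in KO_Norm, 676, 745 and 836 in WT_Opti and 684, 644 and 608 in WT_Norm. Every KO_Opti library was above every WT_Norm library in this sum, and all other pairs of groups overlapped. Within a library, the ratio of the cytosolic to the mitochondrial sum does not depend on how libraries are scaled. This ratio was 28.9, 26.0 and 27.1 in KO_Opti, 20.6, 19.8 and 20.5 in KO_Norm, 23.4, 23.4 and 23.3 in WT_Opti and 22.6, 23.0 and 25.5 in WT_Norm. In this ratio of sums all 3 KO_Opti libraries were above every other library and all 3 KO_Norm libraries were below every other library. The ratio of the median cytosolic to the median mitochondrial FPKM was 24.4, 18.6 and 20.9 in KO_Opti. WT_Norm library 3 had 23.1 in it, above KO_Opti libraries 2 and 3. The KO_Norm libraries, at 13.2, 14.8 and 14.2, were again below every other library.

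**Figure D1:**
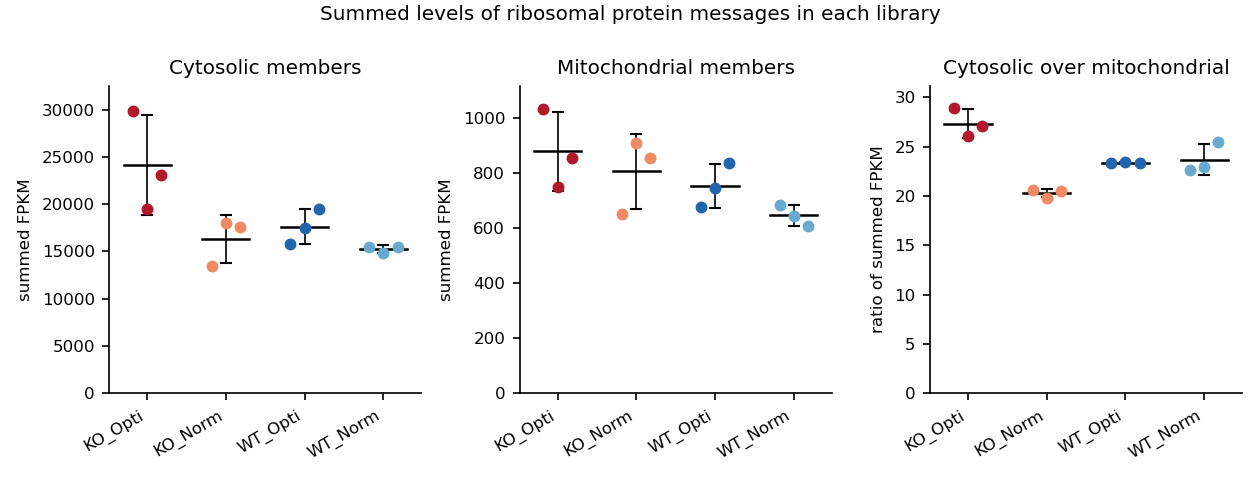
Summed FPKM of the 85 cytosolic members (left), of the 75 mitochondrial members (middle) and their ratio (right) in each library, one point per library, with the mean and SD of the 3 libraries of a group as bars. The ratio averaged 27.3 in KO_Opti and 20.3 in KO_Norm, with the WT groups between them.

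In knockout cells, Opti medium went with higher messages of the cytosolic ribosome and with little movement of the mitochondrial set. Relative to KO_Norm, 26 of 85 cytosolic members rose in KO_Opti and 1 fell, where 8.39% of all genes tested rose, 11.0% fell and 19.4% were called in either direction (edgeR, adjusted p under 0.05). Both subunits took part, with 15 members up and 1 down in the small subunit (median log2 fold change 0.56) and 11 up in the large subunit (median 0.41). The median over all cytosolic members was 0.46 and 77 of 85 values were positive, beside a median of 0.00 over all genes tested. KO_Opti and KO_Norm libraries did not overlap in 42 cytosolic members (49.4%), 41 of them higher in KO_Opti, beside 38.6% of all genes tested. The 7 myeloid markers were lower in KO_Opti in the same comparison, and their part in these values was not tested.

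The largest rise with a small adjusted p was that of Rps12 (chr10:23785183-23787275, ENSMUSG00000061983), a protein of the small subunit's beak. Its level was 749, 229.7 and 440.0 CPM in KO_Opti, against 102, 151 and 135 CPM in KO_Norm. The groups did not overlap, but the KO_Opti libraries were themselves more than 3-fold apart. The log2 fold change was 1.87 ± 0.35 (SE) with an adjusted p of 0.00291. Rps12 shares sequence with named pseudogenes, which held 81.7 counts for every 100 of its own, so its counts are uncertain.

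Rplp0, the base of the P stalk and a common reference gene for quantitative PCR, had 3247, 2582 and 2790.0 CPM in KO_Opti, against 1880.1, 2024 and 2139 CPM in KO_Norm. Every KO_Opti library was above every KO_Norm library, and the log2 fold change was 0.51 ± 0.11 with an adjusted p of 0.00704. Its partner on the stalk, Rpl12, had 1852, 863 and 1197 CPM in KO_Opti, against 567, 778 and 718 CPM in KO_Norm (0.92 ± 0.23, adjusted p 0.0134). Rpl12 did not overlap between the groups, though its lowest KO_Opti library was close to the highest KO_Norm library.

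The ribosomal proteins Rps15a and Rps10 of the small subunit, the second of them near the channel where mRNA enters, showed the same order of libraries. Rps15a had 842, 291 and 459 CPM in KO_Opti, against 155, 248 and 229 CPM in KO_Norm (1.33 ± 0.32, adjusted p 0.0115), and Rps10 had 461, 245 and 311 CPM in KO_Opti, against 168, 209 and 198 CPM in KO_Norm (0.82 ± 0.20, adjusted p 0.0124). Rpl34 of the large subunit had 419.7, 123 and 214 CPM in KO_Opti, against 62.7, 107 and 97.3 CPM in KO_Norm (1.51 ± 0.36, adjusted p 0.013). In all of these the first KO_Opti library was highest and the first KO_Norm library lowest, the libraries named above.

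A single cytosolic member fell. Rps4l, a transcribed processed pseudogene copy of Rps4x, had 25.4, 25.2 and 24.9 CPM in KO_Opti, against 38.7, 39.6 and 41.1 CPM in KO_Norm (-0.66 ± 0.09, adjusted p 0.000445). The libraries of each group were close together and far from the other group, and Rps4x itself had a log2 fold change of 0.26 ± 0.11 that missed the threshold (adjusted p 0.131). Abundant members that missed it included Rplp1 (0.55 ± 0.19, adjusted p 0.0668), Rps3a1 (0.39 ± 0.15, adjusted p 0.0894) and Rps2 (-0.09 ± 0.10, adjusted p 0.576).

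No mitochondrial member passed the threshold between KO_Opti and KO_Norm in edgeR. At an unadjusted p under 0.05 there were 12, DESeq2 called 3 and limma on the FPKM values called 2. The median log2 fold change was -0.07, so that the medians of the 2 sets differed by 0.53, a difference that does not depend on library scaling. The 2 groups did not overlap in 8 mitochondrial members (10.7%), beside 38.6% of all genes tested, so this share was well under that of other genes. Mrpl45, which docks the mitochondrial ribosome at the inner membrane, had 26.2, 29.04 and 28.1 CPM in KO_Opti, against 28.8, 38.5 and 39.9 CPM in KO_Norm, groups that overlapped (-0.36 ± 0.12, adjusted p 0.0585).

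The cytosolic calls moved with single libraries of both groups, in a fit where all 12 libraries share 1 estimate of the spread. Without KO_Opti library 1 the count fell to 4, with 3 up and 1 down and a median of 0.27, and without KO_Opti library 2 it was 43. Leaving out KO_Opti library 3 gave 15 calls, and leaving out KO_Norm libraries 1, 2 and 3 gave 12, 16 and 14. Rpl12, Rpl34 and Rps15a lost their calls without KO_Opti library 1. The median stayed between 0.27 and 0.58 over the 12 fits that left out a library. Without both KO_Opti library 1 and WT_Norm library 3, an alternative added after the data had been seen, 23 members rose and 1 fell with a median of 0.30. The count thus also depended on a library outside the groups compared. Mitochondrial calls were 3 without KO_Opti library 2, 7 without KO_Norm library 1 and 1 without WT_Norm library 3. With the summed Y-linked level as a covariate 2 cytosolic members were called, both lower, and the median was 0.26. Under the treatment entries the 2 groups change places, so all signs of this comparison turn round.

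**Figure D2:**
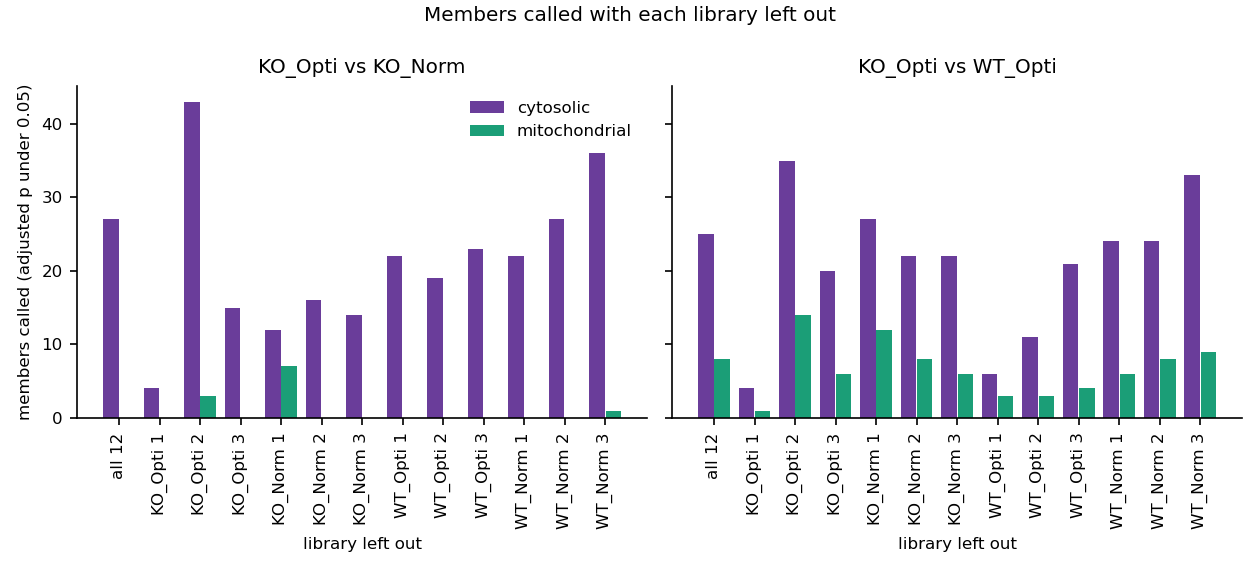
Number of cytosolic and mitochondrial members past an adjusted p of 0.05 with all 12 libraries and with each library left out in turn, for KO_Opti against KO_Norm (left) and KO_Opti against WT_Opti (right). Without KO_Opti library 1, 4 cytosolic members were past the threshold in each comparison.

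**Figure D3:**
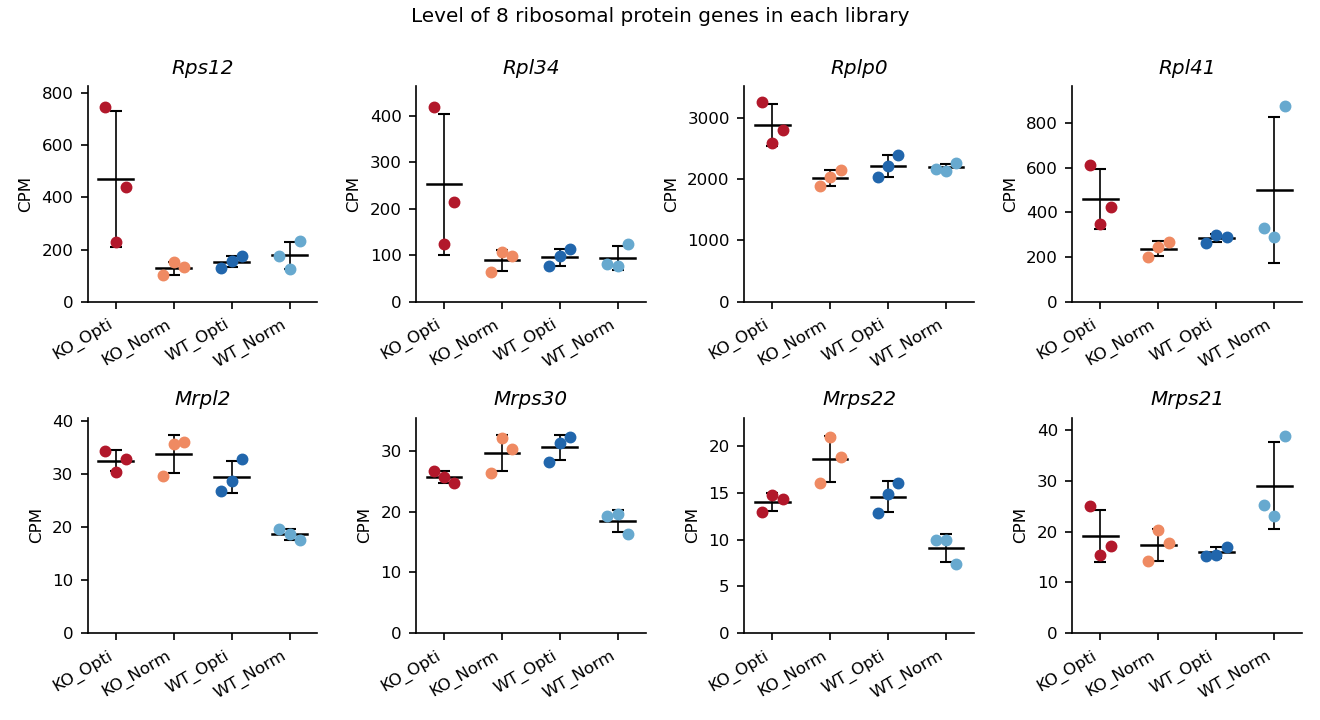
CPM of 8 ribosomal protein genes in each library, cytosolic genes in the upper and mitochondrial genes in the lower row, with the mean and SD of the 3 libraries of a group. Rps12 and Rpl34 were highest in KO_Opti library 1, Rpl41 was highest in WT_Norm library 3, and Mrpl2, Mrps30 and Mrps22 were lowest in the WT_Norm libraries.

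In Opti medium, the cytosolic members called were likewise higher in knockout than in wild type cells, a comparison that shares the KO_Opti libraries with the one before. Relative to WT_Opti, 25 of 85 cytosolic members were called in KO_Opti and all 25 rose, 12 of the small and 13 of the large subunit, where 13.3% of all genes tested rose and 14.9% fell (28.2% in either direction). The share of members called in either direction was thus near that of all genes, and the direction was one-sided. The 7 myeloid markers were lower in this comparison too. The median log2 fold change was 0.37, beside 0.01 over all genes tested. Groups did not overlap in 37 cytosolic members (43.5%), beside 47.4% of all genes tested, so this share was no higher than elsewhere.

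Rps12 had 749, 229.7 and 440.0 CPM in KO_Opti, against 129.7, 157 and 173 CPM in WT_Opti (1.62 ± 0.34, adjusted p 0.00346), with no overlap. Rps27l, a paralog of Rps27 known as a p53 target, had 179, 48.2 and 87.3 CPM in KO_Opti, against 30.04, 34.3 and 39.2 CPM in WT_Opti (1.6 ± 0.39, adjusted p 0.00793). Its parent gene Rps27 had 151, 81.1 and 109 CPM in KO_Opti, against 83.0, 77.3 and 102 CPM in WT_Opti, which overlapped (0.38 ± 0.31, adjusted p 0.404).

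Rps6, the protein of the small subunit that S6 kinase phosphorylates, rose by 0.53 ± 0.16 (adjusted p 0.0232), with 1130.3, 695 and 837 CPM in KO_Opti, against 547, 614 and 688 CPM in WT_Opti. Rpl7l1, a paralog of Rpl7, had 101, 94.6 and 101 CPM in KO_Opti, against 73.2, 73.1 and 81.7 CPM in WT_Opti (0.38 ± 0.09, adjusted p 0.00633). The KO_Opti libraries of Rpl7l1 were close together, and library 1 did not stand apart in it. Rpl34 rose by 1.40 ± 0.36 (adjusted p 0.0118), Rps4x by 0.46 ± 0.11 (adjusted p 0.00931) and Rplp0 by 0.38 ± 0.11 (adjusted p 0.0214). The value of Rpl17 was the largest of all members, but its named pseudogenes held more counts than the gene, 144.2 for every 100 of its own, and its counts are uncertain.

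Of the mitochondrial members 5 rose and 3 fell in KO_Opti relative to WT_Opti, with a median of 0.11. This was 10.7% of the set, beside 28.2% of all genes tested called in either direction. Groups did not overlap in 26.7% of mitochondrial members, beside 47.4% of all genes tested. Both shares were thus well under those of all genes. Mrps10 and Mrps17 of the small subunit and Mrpl23, Mrpl33 and Mrpl41 of the large subunit rose, by 0.48 ± 0.13 for Mrps10 (adjusted p 0.0131) up to 0.96 ± 0.29 for Mrpl33 (adjusted p 0.0229). The groups overlapped in Mrpl33 and in Mrpl41, and Mrpl41 was near the threshold (adjusted p 0.0492). Mrps35, Mrpl9 and Mrpl10 fell. Over the 12 fits that left out a library, Mrpl41 lost its call in 10 and Mrpl10 in 7, and the other called members in at most 3. Mrps35 had 14.3, 13.3 and 13.8 CPM in KO_Opti, against 17.8, 18.8 and 19.7 CPM in WT_Opti, with no overlap (-0.44 ± 0.11, adjusted p 0.00902).

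Without KO_Opti library 1 the cytosolic count was 4, without WT_Opti library 1 it was 6 and without WT_Opti library 2 it was 11, and the median ranged between 0.22 and 0.50 over all fits that left out a library. Mitochondrial calls were 1 without KO_Opti library 1, 14 without KO_Opti library 2, and 3, 3 and 4 without WT_Opti libraries 1, 2 and 3. With the treatment entries as groups, the libraries titled KO_Norm stand against WT_Opti, 3 cytosolic members were called and the cytosolic median was -0.08. With the Y-linked covariate 26 cytosolic members were called, all higher, with a median of 0.54.

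In serum-supplemented medium most of the mitochondrial members called between the genotypes were higher in knockout cells, though the set was called about as often as other genes. Relative to WT_Norm, 25 of 75 mitochondrial members rose in KO_Norm and 2 fell, where 18.9% of all genes tested rose and 17.2% fell (36.1% in either direction). The median log2 fold change of the mitochondrial set was 0.24, beside -0.04 over all genes tested, and the cytosolic median was -0.09. In the cytosolic set 2 members rose and 4 fell. Groups did not overlap in 30 mitochondrial members (40.0%) and in 11 cytosolic members (12.9%), beside 45.3% of all genes tested.

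Mrpl2 (chr17:46646229-46650139, ENSMUSG00000002767), a core protein of the large mitochondrial subunit, had 29.7, 35.8 and 36.1 CPM in KO_Norm, against 19.7, 18.8 and 17.6 CPM in WT_Norm. The lowest KO_Norm library was well above the highest WT_Norm library, and the log2 fold change was 0.86 ± 0.11 with an adjusted p of 6.96e-05. Mrps22 of the small subunit had 16.0, 20.9 and 18.9 CPM in KO_Norm, against 9.97, 9.97 and 7.40 CPM in WT_Norm (1.03 ± 0.15, adjusted p 0.000198), also without overlap.

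Mrps30, which structures place in the large subunit in spite of its name, had 26.3, 32.1 and 30.3 CPM in KO_Norm, against 19.3, 19.6 and 16.3 CPM in WT_Norm (0.69 ± 0.11, adjusted p 0.000334). Mrpl45 had 28.8, 38.5 and 39.9 CPM in KO_Norm, against 21.4, 21.5 and 21.7 CPM in WT_Norm (0.73 ± 0.12, adjusted p 0.000639). Both had no overlap, and the WT_Norm libraries of Mrpl45 were nearly equal. Mrps2 rose by 0.51 ± 0.09 (adjusted p 0.000873), Mrpl37 by 0.58 ± 0.11 (adjusted p 0.0012) and Mrpl3 by 0.71 ± 0.14 (adjusted p 0.00157).

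Mrps21 and Mrpl16 fell. Mrps21, with a short transcript, had 14.1, 20.4 and 17.7 CPM in KO_Norm, against 25.3, 23.0 and 38.9 CPM in WT_Norm (-0.74 ± 0.22, adjusted p 0.0193), with WT_Norm library 3 far above the others. The cytosolic members that rose were Rps2 (0.34 ± 0.10, adjusted p 0.0214) and Rpl7l1 (0.28 ± 0.09, adjusted p 0.025). Those that fell were Rps4l (-0.41 ± 0.09, adjusted p 0.00321), Rpl41, which encodes the smallest protein of the ribosome (-1.08 ± 0.34, adjusted p 0.0269), Rps15 and Rps21. Rpl41 had 199, 245 and 266 CPM in KO_Norm, against 331, 291 and 875 CPM in WT_Norm. Without WT_Norm library 3 the calls of Rpl41, Rps15, Rps21 and Mrps21 were lost. Other libraries mattered too. Over the 12 fits that left out a library, Rps15, Rps21 and Mrpl16 each lost their call in 8. Rpl41 and Rpl7l1 lost it in 4, and Mrps21 and Rps2 in 3.

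The mitochondrial count stayed between 14 and 32 over the fits that left out a library, with 15 without KO_Norm library 2 and 14 without KO_Norm library 3. The cytosolic count of 6 became 1 without KO_Norm library 2 or 3, 10 without WT_Norm library 1 and 13 without WT_Norm library 2. With the treatment entries as groups, the libraries titled KO_Opti stand against WT_Norm, 31 cytosolic members rose and 1 fell, and the cytosolic median was 0.32. With the Y-linked covariate no mitochondrial member was called in edgeR, 10 had an unadjusted p under 0.05 and the mitochondrial median was 0.37. The share of all genes called with this covariate is not given here, so the lost calls cannot be read as particular to the set.

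In wild type cells the TMM-scaled fit called few cytosolic members between the media. The summed cytosolic FPKM, however, was higher in every WT_Opti than in every WT_Norm library. TMM factors were 1.01 to 1.02 in WT_Opti and 0.90 to 0.95 in WT_Norm, so the size of this change depends on library scaling. Relative to WT_Norm, 3 of 85 cytosolic members rose in WT_Opti and 1 fell, where 20.3% of all genes tested rose and 19.6% fell (39.8% in either direction), and 10 cytosolic members had an unadjusted p under 0.05. The cytosolic median was -0.02. Of the mitochondrial members 16 rose and 4 fell, with a median of 0.05, beside -0.01 over all genes tested. Groups did not overlap in 8 cytosolic members (9.41%) and in 33 mitochondrial members (44.0%), beside 51.2% of all genes tested. The cytosolic share called was thus well under the background and the mitochondrial share was under it too.

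Rpl3, which shapes the peptidyl transferase center, had 1014, 1123 and 1199 CPM in WT_Opti, against 869, 904 and 902 CPM in WT_Norm, with no overlap (0.32 ± 0.09, adjusted p 0.0168). Rpl4 (0.29 ± 0.10, adjusted p 0.0379) and Rpl22 (0.33 ± 0.12, adjusted p 0.0432) also rose. Rps4l had 28.9, 25.9 and 30.1 CPM in WT_Opti, against 50.4, 50.3 and 57.4 CPM in WT_Norm (-0.90 ± 0.09, adjusted p 5.1e-06). It fell with Opti medium in both genotypes, and its interaction missed the threshold (0.24 ± 0.12, adjusted p 0.164).

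Among mitochondrial members, Mrps35 had 17.8, 18.8 and 19.7 CPM in WT_Opti, against 9.94, 11.9 and 11.2 CPM in WT_Norm (0.77 ± 0.11, adjusted p 0.00012). Mrps30 had 28.2, 31.3 and 32.2 CPM in WT_Opti, against the WT_Norm values given above (0.73 ± 0.11, adjusted p 0.000143). Mrpl24 had 70.7, 72.4 and 83.0 CPM in WT_Opti, against 38.6, 41.1 and 41.6 CPM in WT_Norm (0.90 ± 0.15, adjusted p 0.000318). None of these 3 overlapped between the media.

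Mrpl2 rose by 0.66 ± 0.11 (adjusted p 0.000388), Mrpl9 by 0.61 ± 0.10 (adjusted p 0.000335), Mrps9 by 0.71 ± 0.12 (adjusted p 0.000401) and Mrpl45 by 0.63 ± 0.12 (adjusted p 0.00139). Mrps21, Mrpl16, Mrpl17 and Mrpl18 fell, by 0.87 ± 0.22 for Mrps21 (adjusted p 0.00698) and by 0.57 ± 0.11 for Mrpl16 (adjusted p 0.00125). Leaving out libraries moved the cytosolic count of 4 to between 1 and 9, with 2 without KO_Opti library 3 or KO_Norm library 3, 1 without WT_Opti library 2 or 3 and 9 without WT_Norm library 2. The mitochondrial count of 20 became 12 without WT_Opti library 3. Same-numbered libraries of the WT groups deviated together to a small degree, so these numbers may pair them, though the labels do not say so. In the WT libraries alone, with the number as a block, 5 cytosolic members rose and 5 fell and the calls of Rpl4 and Mrpl18 were lost, and without the block 5 rose and 2 fell.

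**Figure D4:**
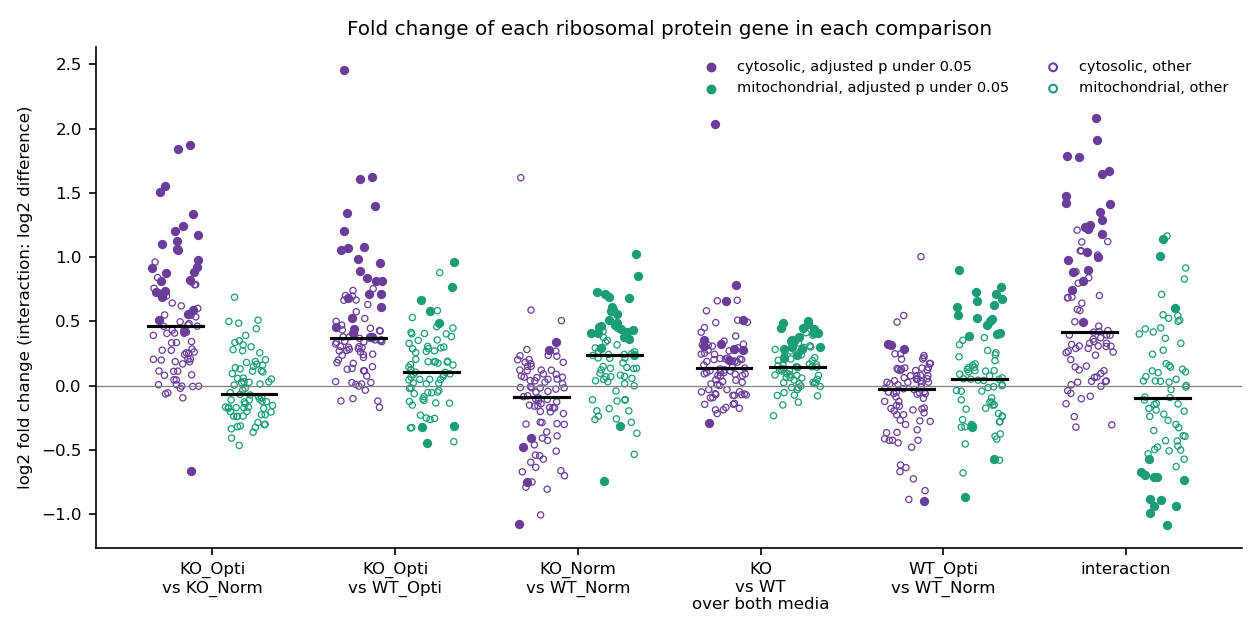
Log2 fold change of each of the 85 cytosolic and 75 mitochondrial members in each comparison (for the interaction, the response of KO cells to Opti minus that of WT cells), with filled points past an adjusted p of 0.05 in edgeR and a bar at the median of each set. The cytosolic medians were 0.46 for KO_Opti against KO_Norm and -0.02 for WT_Opti against WT_Norm.

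Averaged over both media, knockout cells differed little in either set. Of the cytosolic members 10 rose and 1 fell relative to WT cells (median 0.14), and of the mitochondrial members 18 were called, all of them higher (median 0.15), where 18.0% of all genes tested rose and 16.0% fell (34.0% in either direction). Only Rps2 and Rpl7l1 among cytosolic members had all 6 KO libraries above all 6 WT libraries, beside 7.96% of all genes tested with no overlap. Rps2, which sits at the mRNA entry, had 1325, 1354 and 1332 CPM in KO_Opti and 1233, 1500.5 and 1549 CPM in KO_Norm, against 1096, 1128 and 1179 CPM in WT_Opti and 1145, 1051 and 1191 CPM in WT_Norm (0.29 ± 0.07, adjusted p 0.00848). Rpl7l1 had a log2 fold change of 0.33 ± 0.06 (adjusted p 0.00133). These differences were small. For Rps2 the KO_Norm libraries ranged from 1233 to 1549 CPM, and the lowest of them was near the highest WT library, at 1191 CPM.

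In the mitochondrial set, Mrps2 had 37.8, 33.3 and 33.8 CPM in KO_Opti and 35.6, 41.4 and 40.8 CPM in KO_Norm, against 28.9, 31.4 and 32.1 CPM in WT_Opti and 27.7, 27.9 and 27.0 CPM in WT_Norm (0.35 ± 0.06, adjusted p 0.00113), with no overlap. Mrpl2 (0.50 ± 0.08, adjusted p 0.000296), Mrps22 (0.49 ± 0.11, adjusted p 0.0033), Mrpl3 (0.45 ± 0.10, adjusted p 0.0033) and Mrpl58, a peptidyl-tRNA hydrolase (0.41 ± 0.11, adjusted p 0.00893), also rose. Mrps36, now known as a subunit of the 2-oxoglutarate dehydrogenase complex, had a value of 0.15 ± 0.13 (adjusted p 0.405). The cytosolic count of 11 was 7, 29 and 7 without KO_Opti libraries 1, 2 and 3, 22, 6 and 6 without KO_Norm libraries 1, 2 and 3, 6 without WT_Opti library 1 or 2 and 7 without WT_Norm library 2. The mitochondrial count of 18 was 28 without KO_Norm library 1 and 11 without KO_Norm library 3 or WT_Opti library 1. With the Y-linked covariate 5 cytosolic members were called, and no mitochondrial member in edgeR, where 7 had an unadjusted p under 0.05.

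Whether the medium response itself differed between the genotypes was tested as an interaction, the response of KO cells minus that of WT cells. For the cytosolic set 23 members were called, all of them higher, with a median of 0.42, where 14.4% of all genes tested were higher and 17.0% lower (31.4% in either direction) and the median was 0.05. For the mitochondrial set 3 members were higher and 12 lower, with a median of -0.09. Rps12 had an interaction of 2.08 ± 0.48 (adjusted p 0.00549), Rpl41 of 1.78 ± 0.48 (adjusted p 0.0141) and Rps25, which is needed for initiation at some internal ribosome entry sites, of 1.41 ± 0.43 (adjusted p 0.0247). Rps25 had 610.1, 211 and 352 CPM in KO_Opti and 123, 197 and 176 CPM in KO_Norm, against 153, 197 and 216 CPM in WT_Opti and 192, 189.7 and 256 CPM in WT_Norm.

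The mitochondrial members with a lower response in KO cells had their smallest adjusted p in Mrps30 (-0.94 ± 0.15, adjusted p 0.000517), Mrpl45 (-0.99 ± 0.18, adjusted p 0.00099) and Mrps35 (-0.88 ± 0.16, adjusted p 0.000991). In these genes the WT_Norm libraries were the low ones. Mrpl2, for example, had 34.5, 30.4 and 32.9 CPM in KO_Opti and 29.7, 35.8 and 36.1 CPM in KO_Norm, against 26.9, 28.7 and 32.9 CPM in WT_Opti and 19.7, 18.8 and 17.6 CPM in WT_Norm (-0.71 ± 0.15, adjusted p 0.00375).

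The mitochondrial interaction count of 15 ran between 13 and 22 over the fits that left out a library. The cytosolic interaction count of 23 was 4 without KO_Opti library 1, 13 without KO_Opti library 3, 5, 15 and 12 without KO_Norm libraries 1, 2 and 3, 4, 6 and 15 without WT_Opti libraries 1, 2 and 3 and 7 without WT_Norm library 3. With the treatment entries as groups, 1 cytosolic member was higher and 14 were lower, with a median of -0.37. With the Y-linked covariate 1 cytosolic member was called, a lower one.

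Fold changes of the members went with transcript length in some of the comparisons. Members have short transcripts, with a median of 711.5 nt for cytosolic and 1134 nt for mitochondrial genes and 1926 nt for all genes tested. For KO_Opti against KO_Norm, Pearson's r between log2 fold change and log length was -0.36 over the 85 cytosolic members, -0.40 over the 75 mitochondrial members and -0.09 over 18936 other genes. For KO_Norm against WT_Norm it was 0.49, 0.42 and -0.03, and for WT_Opti against WT_Norm 0.39, 0.41 and -0.05. It was -0.22, -0.38 and -0.06 for KO_Opti against WT_Opti and 0.16, 0.08 and -0.06 for KO against WT over both media. For the interaction it was -0.51, -0.48 and -0.02. These are descriptions across genes that share their libraries.

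The 28 cytosolic members under 600 nt had a median of 0.72 for KO_Opti against KO_Norm, with 11 up, and the 57 longer ones a median of 0.34, with 15 up and 1 down. Other genes under 600 nt (1611 genes) had a median of 0.25. For KO_Norm against WT_Norm the short cytosolic members had a median of -0.38 and the longer ones 0.03, with -0.21 in other short genes. For the interaction the short cytosolic members had a median of 0.93 and the longer ones 0.33, with 0.40 in other short genes. Within the WT_Norm group, the short cytosolic members of library 3 stood at 0.47 and those of libraries 1 and 2 at -0.16 and -0.27, as median log2 deviations from the mean of all libraries. With offsets that remove a length trend from each library, an alternative added after the data had been seen, 36 cytosolic members rose and 1 fell for KO_Opti against KO_Norm, with a median of 0.40. The length of a transcript also bears on recovery and counting of RNA, and its part in these values was not tested further.

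**Figure D5:**
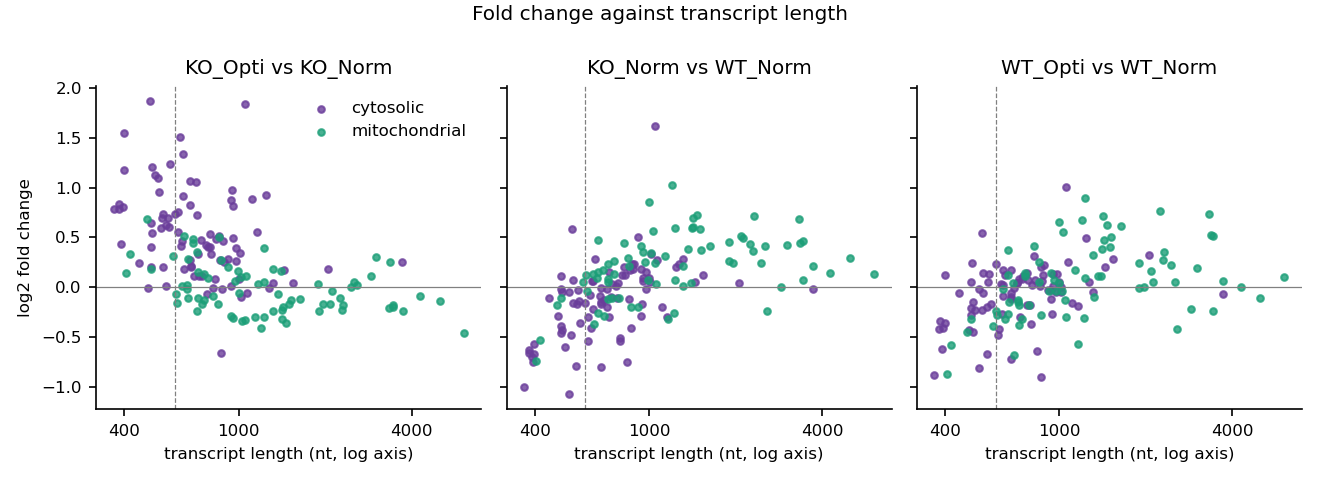
Log2 fold change of each member against transcript length (log axis, nt) for KO_Opti against KO_Norm, KO_Norm against WT_Norm and WT_Opti against WT_Norm, with a dashed line at 600 nt. The cytosolic members under 600 nt had a median of 0.72 in the first comparison and of -0.38 in the second.

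The start-site run divided the cytosolic members only a little. For KO_Opti against KO_Norm, 13 of 30 members with a run rose (median 0.72), as Rps10, Rps15a, Rpl34 and Rpl12 did, and 9 of 31 without one rose (median 0.47), among them Rps12 and Rplp0. For KO_Opti against WT_Opti the counts were 11 of 30 and 12 of 31. Mrpl45 has a run and Mrpl2 and Mrps30 have none, and all of them rose in KO_Norm relative to WT_Norm.

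Paralogs took a part of their pair's counts that varied between libraries. Rps27l held 26.6% to 54.4% of the counts of Rps27l and Rps27 together, Rpl22l1 14.4% to 37.1% of the pair with Rpl22, Rpl7l1 8.73% to 12.4% of the pair with Rpl7, and Rpl39l, the testis paralog, 4.75% to 7.34% of the pair with Rpl39. Rps27l was above Rps27 in KO_Opti library 1 and KO_Norm library 2 and below it in the other 10 libraries. Rpl22l1 had 145, 43.4 and 76.0 CPM in KO_Opti, against 32.9, 72.5 and 57.8 CPM in KO_Norm, which overlapped (0.70 ± 0.36, adjusted p 0.206).

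Reads of ribosomal protein genes can also be shared with their many pseudogene copies. Named copies (242 rows, of which 232 could be added to 62 members) held 5.68 to 7.19 counts for every 100 cytosolic member counts in a library. For every 100 counts of the gene itself, the copies of Rpl21 held 209.2, those of Rpl17 144.2, those of Rps12 81.7, those of Rpl7a 50.4 and those of Rps10 46.0, with a median of 3.34 over these members. Copies held more counts than the gene for 2 members, Rpl21 and Rpl17. Another row of the table overlapped 79 members, 49 of them on the other strand, and the sources used here do not say whether counting used the strand.

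Genes that act with ribosomes were set beside the members. Of 15 genes of cytosolic elongation and other TOP messages, 2 were called in KO_Opti relative to KO_Norm, beside 19.4% of all genes tested, and both fell, Pabpc1, the poly(A)-binding protein (-0.34 ± 0.10, adjusted p 0.0282), and Eef1d, a subunit of the exchange factor of elongation factor eEF1A (-0.35 ± 0.11, adjusted p 0.037). Of these 15, 5 rose and 0 fell in KO_Norm relative to WT_Norm, where 36.1% of all genes tested were called. In WT_Opti relative to WT_Norm 3 rose and 1 fell, where 39.8% were called. Of 13 regulators of ribosomal protein synthesis 1 was called in KO_Opti relative to KO_Norm, beside 19.4% of all genes tested. This was Larp1, which binds TOP tracts and fell (-0.32 ± 0.09, adjusted p 0.0247). Of 13 mitochondrial translation factors 8 rose and 1 fell in WT_Opti relative to WT_Norm (median 0.49), where 20.3% of all genes tested rose, and 7 rose in KO_Norm relative to WT_Norm (median 0.40), where 18.9% rose. Mtif3, which starts mitochondrial translation, rose by 1.0 ± 0.10 (adjusted p 7.07e-06) in WT_Opti, and Lrpprc, which keeps mitochondrial mRNA stable, rose by 0.93 ± 0.10 in WT_Opti (adjusted p 1.17e-05) and by 1.08 ± 0.10 in KO_Norm relative to WT_Norm (adjusted p 5.34e-06).

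Eif4ebp1, the translational repressor that mTORC1 inactivates, rose by 2.0 ± 0.11 in WT_Opti relative to WT_Norm (adjusted p 4.87e-08) and by 2.20 ± 0.11 in KO_Norm relative to WT_Norm (adjusted p 4.32e-08). Myc, a driver of ribosome production, fell by 1.05 ± 0.08 in WT_Opti relative to WT_Norm (adjusted p 4.47e-07) and rose by 0.76 ± 0.08 in KO_Opti relative to WT_Opti (adjusted p 1.39e-05). Rack1, a ribosomal protein outside the naming rule, rose by 0.32 ± 0.10 in KO_Opti relative to WT_Opti (adjusted p 0.0371). The other 4 cytosolic ribosomal proteins outside the rule were not called there, where 28.2% of all genes tested were called.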

How the data were processed

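Poly(A) RNA of 12 libraries was sequenced from stranded libraries as read pairs. According to the submitters' processing notes, the authors inspected reads with FastQC, aligned them with HISAT2, assembled them with StringTie and used edgeR. Neither versions nor a build are stated in labels or methods. The authors deposited raw counts and FPKM values per gene, and 99.7% of the identifiers matched GENCODE M21 (GRCm38), whose median transcript length per gene was used. Counts were fitted in edgeR 4.0.16 (R 4.3.3) with filterByExpr, TMM factors, 1 mean per group and the quasi-likelihood test, two-sided, with Benjamini-Hochberg adjustment over 19118 genes to a threshold of 0.05. The biological coefficient of variation was 25.4%. DESeq2 1.42.0 and limma 3.58.1 on log2(FPKM + 1), for genes with a group mean of at least 1 FPKM, were alternatives, beside those named in the closing section. With 51546504 to 71448484 counts per library, spread between libraries and not counting limits the precision. Libraries of a group differed beyond sampling noise (chi-square per degree of freedom 32.3 to 385.7 over 10462 genes). Same-numbered WT_Opti and WT_Norm libraries deviated together from their group means (correlations 0.21, 0.16 and 0.13 over 10000 genes, the other pairs below 0). No other 2 groups had every same-numbered pair over 0.1. The labels do not state a pairing, and differently numbered libraries reached 0.56 (KO_Norm library 2 with WT_Opti library 3), so whether the numbers pair libraries is not known. The fit was tested on simulated data with 200 changed genes.

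Members and gene lists were chosen with earlier results of these data known. Named are, in each comparison and subunit, the 3 members with the smallest adjusted p in each direction, those called against their set's median, the 2 with the highest FPKM, and paralogs with their parents, though not every gene that met the rule is named. Others named are all members with a called interaction and, for their role, Mrps36 and Mrpl58, chosen after their values were seen.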

Additional observations from a re-analysis of the deposited data

Results flagged for a closer look

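In the interaction test 31.4% of all genes tested were called, a larger share than in the cytosolic or in the mitochondrial set. Neither set was thus called more often than other genes. The medium response of 23 of 85 cytosolic and 15 of 75 mitochondrial members differed between knockout and wild type cells by this test of the difference itself (the interaction in edgeR, log2 scale, KO_Opti minus KO_Norm less WT_Opti minus WT_Norm, adjusted p under 0.05). It was higher in knockout cells for the cytosolic members Rps12 (2.08), Rpl32l (1.91), Rpl39l (1.79), Rpl41 (1.78), Rpl38 (1.67), Rps27l (1.65), Rpl34 (1.48), Rps15a (1.42), Rps25 (1.41), Rpl35a (1.35), Rpl37a (1.29), Rpl35 (1.25), Rpl39 (1.24), Rps21 (1.22), Rpl36 (1.18), Rps16 (1.04), Rps23 (0.999), Rpl27 (0.97), Rps3a3 (0.90), Rps10 (0.88), Rps15 (0.82), Rpl27a (0.74) and Rplp0 (0.50). It was also higher for the mitochondrial members Mrpl33 (1.14), Mrps21 (1.01) and Mrpl16 (0.60). It was lower in knockout cells for the mitochondrial members Mrps22 (-1.08), Mrpl45 (-0.99), Mrps9 (-0.94), Mrps30 (-0.94), Mrpl40 (-0.89), Mrps35 (-0.88), Mrpl9 (-0.73), Mrpl2 (-0.71), Mrpl38 (-0.71), Mrpl1 (-0.70), Mrpl44 (-0.67) and Mrpl37 (-0.57). Rps12, Rpl32l, Rpl39l, Rpl41, Rps25, Mrpl33 and Rps15 were among those that turned sign under the treatment entries of the labels.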

How the results depend on the processing

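The treatment entries of the labels turn the most signs. Under them the cytosolic median is -0.46 for KO_Opti against KO_Norm (cytosolic minus mitochondrial median -0.53), -0.081 for KO_Opti against WT_Opti (3 cytosolic and 3 mitochondrial calls, difference of medians -0.26, Rps12 -0.25, Rpl34 -0.11), 0.32 for KO_Norm against WT_Norm (32 cytosolic calls, difference 0.12, Rps15 0.11, Rps21 0.058) and -0.37 for the interaction (15 cytosolic calls, difference -0.35, Rps12 -1.66, Rpl32l -1.19, Rps25 -1.07, Rps15 -0.37, Rpl39l -0.34, Mrpl33 -0.24, Rpl41 -0.15). With the Y-linked level as a covariate, which differs between the groups themselves, KO against WT had 5 cytosolic and 0 mitochondrial calls (cytosolic median 0.47, difference 0.20) and KO_Norm against WT_Norm 2 and 0 calls (cytosolic median 0.34, difference -0.030, with Rpl41 1.12, Rps21 0.68, Rps15 0.55, Mrps21 0.27 and Mrpl16 0.061). There were 2 cytosolic calls for KO_Opti against KO_Norm (difference 0.40) and 2 for WT_Opti against WT_Norm, 3 mitochondrial calls for KO_Opti against WT_Opti (difference 0.37), and 1 cytosolic and 7 mitochondrial calls for the interaction.

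Without KO_Opti library 1 and WT_Norm library 3, the difference of medians was 0.028 for WT_Opti against WT_Norm, -0.22 for KO_Norm against WT_Norm and 0.41 for KO_Opti against KO_Norm, with 2 mitochondrial calls for KO_Opti against WT_Opti and 6 cytosolic calls for the interaction. Length-adjusted offsets gave 14 cytosolic calls for KO_Norm against WT_Norm and 4 mitochondrial calls for KO_Opti against KO_Norm. DESeq2 gave 11 cytosolic calls for KO_Norm against WT_Norm, 14 mitochondrial calls for KO_Opti against WT_Opti and 3 for KO_Opti against KO_Norm. With limma on FPKM, where the median of all genes itself shifted by up to 0.21, there were 29 cytosolic and 32 mitochondrial calls for KO against WT, 41 and 2 for KO_Opti against KO_Norm, 9 cytosolic calls for WT_Opti against WT_Norm (mitochondrial median 0.22) and 14 for the interaction. With no filter on low counts there were 7 cytosolic calls for KO against WT, 2 for WT_Opti against WT_Norm, 13 for the interaction and 5 mitochondrial calls for KO_Opti against WT_Opti.

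Leaving out 1 library moved cytosolic calls between 4 and 43 (KO_Opti against KO_Norm), 4 and 35 (KO_Opti against WT_Opti), 1 and 13 (KO_Norm against WT_Norm), 1 and 9 (WT_Opti against WT_Norm), 6 and 29 (KO against WT) and 4 and 31 (interaction). Mitochondrial calls moved between 0 and 7, 1 and 14, 14 and 32, 12 and 23, and 11 and 28 in the first 5 of these. The difference of medians ran between 0.41 and 0.56 for KO_Opti against KO_Norm, -0.36 and -0.22 for KO_Norm against WT_Norm, -0.12 and 0.028 for WT_Opti against WT_Norm (0.028 without WT_Norm library 3) and 0.41 and 0.58 for the interaction.

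With the replicate block, KO_Opti against KO_Norm had 1 mitochondrial and 22 cytosolic calls and the interaction 15 cytosolic calls. Same-numbered libraries correlated at -0.40 to 0.51 (18 pairs), and whether the numbers pair libraries is not known. Only WT_Opti and WT_Norm had a positive correlation in every same-numbered pair. For these 2 groups fitted alone, an alternative added after seeing the data, WT_Opti against WT_Norm had 10 cytosolic calls with the replicate block and 7 without it, and the mitochondrial count and the medians moved less. TMM factors without ribosomal protein genes and pseudogene counts added to their members moved no count by over 1.5 times. Of the other values under settings that keep all or most libraries, 630 of the named genes' values kept their call, 118 lost it and 16 turned sign. All counts under these alternatives stand without the share of all genes called in the same fit. Their changes can therefore not be read as particular to the members. The cause of these changes was not tested. Groups of 3 libraries, the conflict between the knockout labels, the sex of the pups and the cell types that differ between groups limit every comparison.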
